A study of Sus scrofa with 9 samples.

Results

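The genes described here start and restrain blood coagulation or control the conversion of plasminogen to plasmin. They are F3, TFPI, TFPI2, THBD, PLAU, PLAT, PLAUR, SERPINE2 and A2M, 9 of the 19535 genes in the deposited count table, taken by their symbols. The 9 genes were chosen with their levels in these libraries known, so their values are a description and no p-value is given for them. RNA was sequenced from porcine valvular interstitial cells (PVICs), wild-type cells grown from the aortic valve leaflets of pigs aged 4 to 5 months after the surface endothelium had been scraped off. There were 3 groups of 3 libraries, and the labels give a treatment of 3 days for each. Control cells were kept in DMEM. Cells of the OIM group were kept in osteogenic induced medium, which adds insulin, ascorbic acid (50 µg/mL) and sodium dihydrogen phosphate (2 mmol/L) and is used to induce calcium deposition. Cells of the bFGF group received the same osteogenic medium with 50 ng/mL basic fibroblast growth factor, a heparin-binding growth factor that was added to inhibit the deposition. Nothing in the sources used here says that the 3 libraries of a group came from separate animals or cultures, so every error and p-value measures the spread between these libraries only, which may be technical.

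Coagulation starts when tissue factor, the membrane protein encoded by F3, meets factor VII and the pair activates factor X. TFPI blocks that complex together with factor Xa, and thrombomodulin, encoded by THBD, binds thrombin and turns it towards activating protein C. Fibrin and matrix proteins are cleared by plasmin, which the urokinase-type (PLAU) and tissue-type (PLAT) activators release from plasminogen, with PLAUR holding urokinase at the cell surface and with serpins and A2M as inhibitors. Interstitial cells lie below the valve endothelium and are not normally in contact with blood, and tissue factor has been described in calcified aortic valve leaflets.

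All 9 genes were among the 13662 that passed the filter on low counts and were tested. TFPI passed it only through its counts in the bFGF libraries, so its place among the genes called there follows from the filter and supports nothing. Gene counts totalled 57075793 to 64723837 in the control libraries, 57682710 to 67371523 in the OIM libraries and 46773376 to 48270827 in the bFGF libraries. Levels are given as per-million counts (CPM) after scaling by the trimmed mean of M-values (TMM), whose factors were 0.937 to 0.967 in the control and OIM libraries and 1.1 to 1.11 in the bFGF libraries. The OIM replicate 2 library had a mean chi-square per gene of 19.1 and 19.2 against the other OIM libraries. The other pairs within a group gave 4.68 to 11.7. This measure grows with counts, and OIM replicate 2 had the highest total. By root-mean-square deviation of log2 CPM from the group mean, that library did not stand apart, at 0.232 beside 0.229 and 0.224. Without it, the log2 fold changes of bFGF over OIM were -4.92 for F3 (SE 0.11), 7.71 for TFPI, -0.73 for TFPI2, 0.81 for THBD, 0.47 for PLAU, 2.45 for PLAT, 1.65 for PLAUR, 0.37 for SERPINE2 and -2.22 for A2M. Those of OIM over control were 1.07 for F3, -0.99 for TFPI, -0.01 for TFPI2, 0.61 for THBD, -0.12 for PLAU, -0.23 for PLAT, 0.29 for PLAUR, -0.56 for SERPINE2 and 0.08 for A2M. All other values use every library unless one is named as left out. In the bulk RNA of a culture, fewer cells of a type and less RNA per cell cannot be told apart.

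The bases just upstream of 2 of the genes are shown first, since both differed between groups and their windows hold short motifs that a search on both strands found. Each window is the 250 bases that precede the annotated gene start in Sscrofa11.1 (RefSeq annotation release 106), written 5′ to 3′ on the strand of the gene, and none of its bases lies in an annotated exon. Capitals mark the matches to the 5 motifs searched, which were TATAAA (the TATA box), GGGCGG (the GC box), TGANTCA (the AP-1 motif with its middle base free), CCGGAAG (an ETS-type motif) and GCGNGGGCG (the EGR1 motif with 1 base free). The PLAUR window lies on the minus strand at chr6:50505454-50505703 and that of PLAT on the minus strand at chr17:11223822-11224071.
PLAUR: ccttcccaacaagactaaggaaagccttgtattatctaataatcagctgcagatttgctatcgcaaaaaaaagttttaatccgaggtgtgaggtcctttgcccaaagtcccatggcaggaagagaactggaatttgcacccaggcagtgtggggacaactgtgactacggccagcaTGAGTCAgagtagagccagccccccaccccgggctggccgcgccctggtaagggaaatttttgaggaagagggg
PLAT: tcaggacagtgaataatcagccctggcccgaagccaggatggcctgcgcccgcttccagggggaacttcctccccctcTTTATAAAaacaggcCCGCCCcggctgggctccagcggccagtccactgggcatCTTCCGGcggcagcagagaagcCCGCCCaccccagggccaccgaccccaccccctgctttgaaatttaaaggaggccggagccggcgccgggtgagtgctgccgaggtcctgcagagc

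TGANTCA occurred in 5.25% of the 19525 windows of the same length upstream of annotated genes, and the PLAUR window held 1 match. Counted from the base before the start as -1, that match began at -74. In the PLAT window, 2 overlapping matches to TATAAA on opposite strands began at -172 and -170, GGGCGG lay at -157 and -96, and CCGGAAG lay at -118. Across all windows, TATAAA was found in 9.76%, GGGCGG in 45.9%, CCGGAAG in 7.76% and GCGNGGGCG in 9.51%. Matches are given for these 2 windows alone, so they say nothing of which of the 9 genes hold a motif. The GC content was 66.4% for PLAT and 51.6% for PLAUR. A match is a string of letters and not evidence of binding.

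Of the 9 genes, F3 and THBD were higher in OIM-treated PVICs than in control cells by the limits used for all genes (adjusted p at most 0.05 and absolute log2 fold change at least 0.5), where 1.49% of all genes tested were called higher and 0.864% lower. By edgeR and by DESeq2, 0 of the 9 were called lower, and at an unadjusted p under 0.05 3 of them were lower, 0 of these past the fold limit. With bFGF against OIM, 4 of the 9 were called higher (TFPI, THBD, PLAUR and PLAT) and 3 lower (F3, TFPI2 and A2M), beside 17.7% and 18.4% of all genes. With bFGF against control, the same 4 were called higher and the same 3 lower, beside 18.9% and 20.0%. The genes were selected on these contrasts, so the shares of all genes stand beside the counts as background only. The comparisons are not independent, since the OIM libraries enter both of the first pair and the bFGF libraries enter the last pair. When libraries were scaled by their totals alone, the median of all genes moved by 0.22 on the log2 scale in both bFGF comparisons. The share of calls that were higher was then 68.8% in place of 49.0% for bFGF against OIM and 68.1% in place of 48.5% for bFGF against control.

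**Figure D1:**
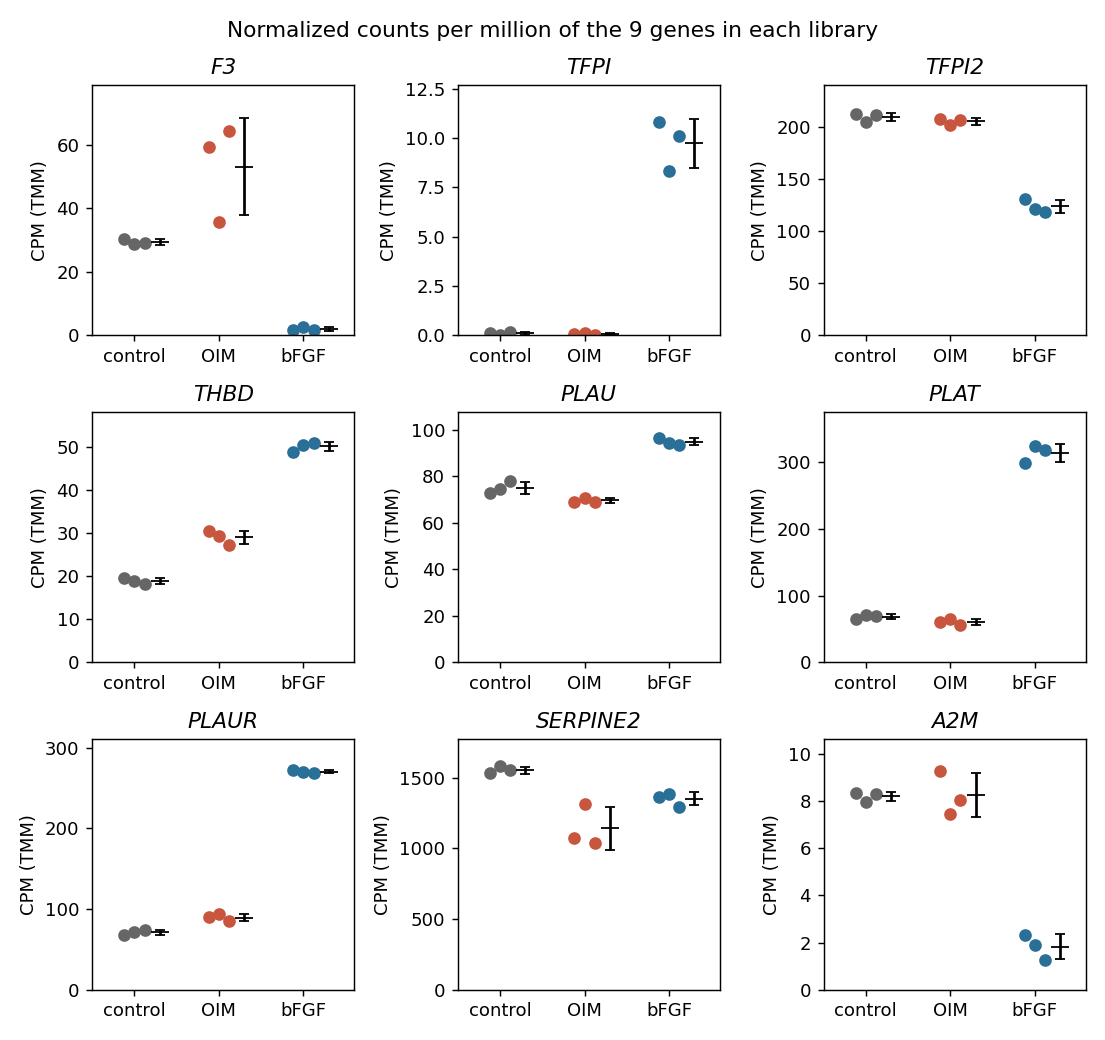
TMM-scaled CPM (vertical axes, each from 0) of the 9 genes in every control, OIM and bFGF library, with points for libraries and the bar showing the mean ± SD (n = 3). TFPI lies near 0 outside the bFGF group, where it is 8.32 to 10.8 CPM, and F3 is 1.65 to 2.67 CPM there.

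F3, the initiator, stood at 30.4, 28.7 and 29.2 CPM in the control libraries and at 59.4, 35.7 and 64.3 CPM in the OIM libraries. In the bFGF libraries it was 1.73, 2.67 and 1.65 CPM, from 93, 139 and 86 counts. The 3 groups did not overlap, with OIM highest and bFGF lowest, and OIM replicate 2 was close to the control level. The mean was 29.4 ± 0.859 CPM in control, 53.1 ± 15.3 in OIM and 2.02 ± 0.566 in bFGF (SD, n = 3). The log2 fold change of OIM over control was 0.85 (SE 0.14), and it was 1.07 (SE 0.081) without OIM replicate 2. Of the 5 smooth muscle markers read in the same libraries, 2 were also called higher in OIM than in control, MYH11 (1.13) and DES (3.33), and their part in the F3 level was not tested. With bFGF, the F3 transcript was 26.3-fold lower than with OIM alone (log2 fold change -4.71, SE 0.19) and 14.6-fold lower than in control cells (-3.86, SE 0.20). F3 spans chr4:122827018-122837673 on the plus strand, with 6 merged exons, and no other annotated gene overlaps it.

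TFPI, the inhibitor of the tissue factor complex, was almost undetected without bFGF. Its counts were 7, 0 and 9 in the control libraries, 4, 7 and 1 in the OIM libraries, and 577, 433 and 525 in the bFGF libraries. Control and OIM overlapped, and every bFGF library lay far above both. The mean CPM was 0.093 ± 0.0813 in control, 0.0662 ± 0.0454 in OIM and 9.73 ± 1.26 in bFGF (SD, n = 3). The fitted log2 fold change of bFGF over OIM was 7.12 (SE 0.37), and 7.71 (SE 0.41) without OIM replicate 2. Over all libraries left out in turn, it ran from 6.69 to 7.71. Against control it was 6.70 (SE 0.35), and it ran from 6.1 without control replicate 2 to 7.27 without control replicate 3. Between OIM and control the log2 fold change was -0.42 with an SE of 0.72, and it ran from -1.02 to 0.15 with single libraries left out, so no direction can be read from it at this depth.

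TFPI lies on the minus strand at chr15:92345083-92409962, with 12 merged exons from 6 transcript models. It shares 71 exon bases with LOC106506297, a long non-coding RNA on the opposite strand, and both listed transcripts of that RNA had a count of 0 in every library. The strand setting of the counting is not given in the sources used here, so reads on the shared bases cannot be assigned to 1 of the pair.

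TFPI2, a related Kunitz-type inhibitor that acts on plasmin and other serine proteases, took the opposite course to TFPI. It was 213, 205 and 212 CPM in control and 208, 202 and 207 CPM in OIM, so these groups overlapped. With bFGF it was 131, 122 and 119 CPM, below every other library. The group means were 210 ± 4.18, 206 ± 3.51 and 124 ± 6.07 CPM (SD, n = 3). The log2 fold change was -0.03 (SE 0.039) for OIM over control, -0.73 (SE 0.04) for bFGF over OIM and -0.76 (SE 0.04) for bFGF over control. Scaled by library totals, the bFGF over OIM value was -0.51, still lower but near the limit of 0.5. TFPI2 is on chr9:73684236-73694663 on the minus strand, inside the span of GNGT1 on the other strand, with which it shares 0 exon bases.

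THBD was higher in OIM than in control and higher again with bFGF. The values were 19.6, 18.9 and 18.1 CPM in control, 30.5, 29.3 and 27.3 CPM in OIM and 48.9, 50.5 and 50.8 CPM in bFGF. No library of any group reached the range of the next. The means were 18.9 ± 0.751, 29.0 ± 1.59 and 50.1 ± 1.01 CPM (SD, n = 3), which gave a log2 fold change of 0.62 (SE 0.06) for OIM over control, 0.79 (SE 0.058) for bFGF over OIM and 1.41 (SE 0.059) for bFGF over control. THBD is a gene of 1 exon on the minus strand at chr17:30219870-30223499. Within the libraries, the ratio of THBD to F3, both as CPM per kb of merged exons, was 0.322 ± 0.00922 in control, 0.294 ± 0.104 in OIM and 13 ± 3.12 in bFGF (SD, n = 3). The ratio of TFPI to F3 on the same scale was 1.53, 0.766 and 1.5 in the bFGF libraries. In the control libraries it was 0.00104, 0 and 0.00127.

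THBD and TFPI are also made by endothelial cells, which cover the valve, so endothelial markers were read in the same libraries. All 8 listed markers were tested, and their summed level was 73.2 to 75.5 CPM in control, 87.5 to 89.3 in OIM and 170 to 179 in bFGF. With bFGF against OIM, 6 of the 8 were called higher, beside 17.7% of all genes. They were KDR (log2 fold change 2.73), EMCN (1.55), TEK (1.04), ERG (1.04), PECAM1 (0.81) and CDH5 (0.51). KDR stood at 0.0564, 0.169 and 1.17 CPM in control, OIM and bFGF. It passed the filter on low counts only through the bFGF libraries, so its call supports nothing. ERG, a transcription factor of endothelial cells, had a mean of 66.8 CPM in OIM and 137 CPM in bFGF. VWF, a defining endothelial gene, stood at 0.479, 0.303 and 0.228 CPM in control, OIM and bFGF, and TIE1 at 1.89, 1.85 and 2.03 CPM. The part of endothelial cells in the levels of THBD and TFPI was not tested.

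**Figure D2:**
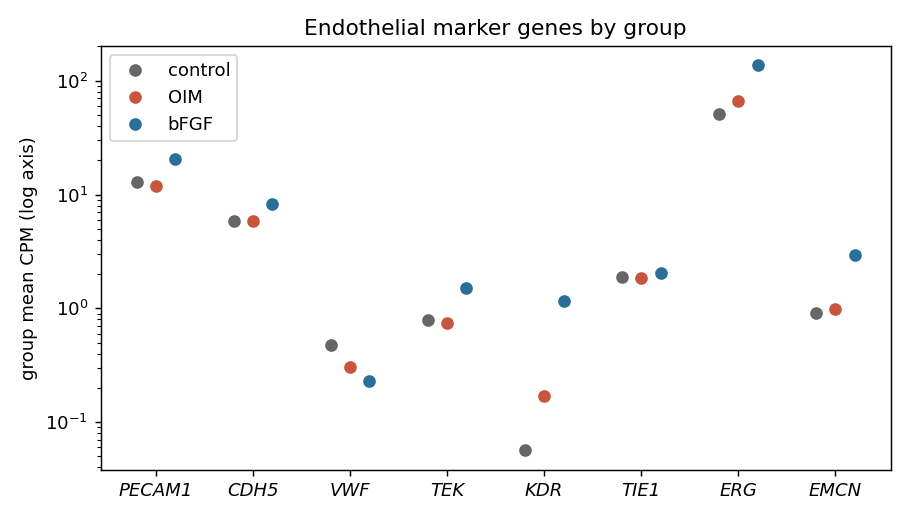
Mean CPM (log axis, n = 3 libraries) of 8 endothelial markers in control, OIM and bFGF. ERG, KDR, EMCN, TEK, PECAM1 and CDH5 are higher with bFGF than with OIM, TIE1 is near 2 CPM in all groups, and VWF is under 1 CPM in all groups.

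PLAU, the urokinase-type activator, differed by less than the fold limit in all 3 comparisons. It was 72.7, 74.5 and 77.9 CPM in control, 69.1, 70.8 and 69.1 CPM in OIM and 96.4, 94.3 and 93.6 CPM in bFGF. The 3 groups did not overlap, with OIM lowest. The means were 75.0 ± 2.65, 69.7 ± 0.988 and 94.8 ± 1.43 CPM (SD, n = 3). The log2 fold change was -0.11 (SE 0.041) for OIM over control, 0.44 (SE 0.041) for bFGF over OIM and 0.34 (SE 0.041) for bFGF over control. Scaled by library totals, PLAU passed the limit of 0.5, at 0.66 and 0.56 in the bFGF comparisons. PLAU (chr14:76629313-76635173, plus strand) shares 115 exon bases with CAMK2G on the opposite strand, whose mean level was 52.6, 50.6 and 28.1 CPM in control, OIM and bFGF. With no strand setting given, reads from the shared bases cannot be assigned to 1 of the pair, and their part in the PLAU level was not tested.

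PLAT, the tissue-type activator, showed the largest difference among the activators and their receptor. Its levels were 64.7, 71.7 and 69.4 CPM in control, 60.9, 65.2 and 55.7 CPM in OIM and 299, 325 and 319 CPM in bFGF. Control and OIM overlapped by 1 library each, and all bFGF libraries lay above. The means were 68.6 ± 3.56, 60.6 ± 4.74 and 314 ± 13.7 CPM (SD, n = 3). With bFGF the PLAT transcript was 5.18-fold higher than with OIM (log2 fold change 2.37, SE 0.054) and 4.58-fold higher than in control (2.20, SE 0.054), whereas OIM over control was -0.18 (SE 0.054). The gene lies on the minus strand at chr17:11195599-11223821 and no annotated gene overlaps it. Per kb of merged exons, the ratio of PLAT to PLAU was 0.894 ± 0.0404 in control, 0.851 ± 0.0567 in OIM and 3.25 ± 0.185 in bFGF (SD, n = 3), so PLAT was the lower activator transcript without bFGF and the higher one with it.

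PLAUR, the urokinase receptor, was 68.1, 71.9 and 74.0 CPM in control, 89.6, 93.2 and 85.0 CPM in OIM and 272, 270 and 268 CPM in bFGF. The groups were apart, and the bFGF libraries differed from each other by less than those of any other group. The means were 71.3 ± 2.98, 89.3 ± 4.09 and 270 ± 1.87 CPM (SD, n = 3). The log2 fold change was 0.32 (SE 0.042) for OIM over control, 1.60 (SE 0.042, 3.02-fold) for bFGF over OIM and 1.92 (SE 0.043, 3.78-fold) for bFGF over control. Relative to its ligand, the ratio of PLAUR to PLAU per kb was 1.57 ± 0.0231, 2.11 ± 0.0741 and 4.70 ± 0.0383 (SD, n = 3) in the same order of groups. PLAUR is on the minus strand at chr6:50489773-50505453 and overlaps LOC106507601 without sharing exon bases.

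**Figure D3:**
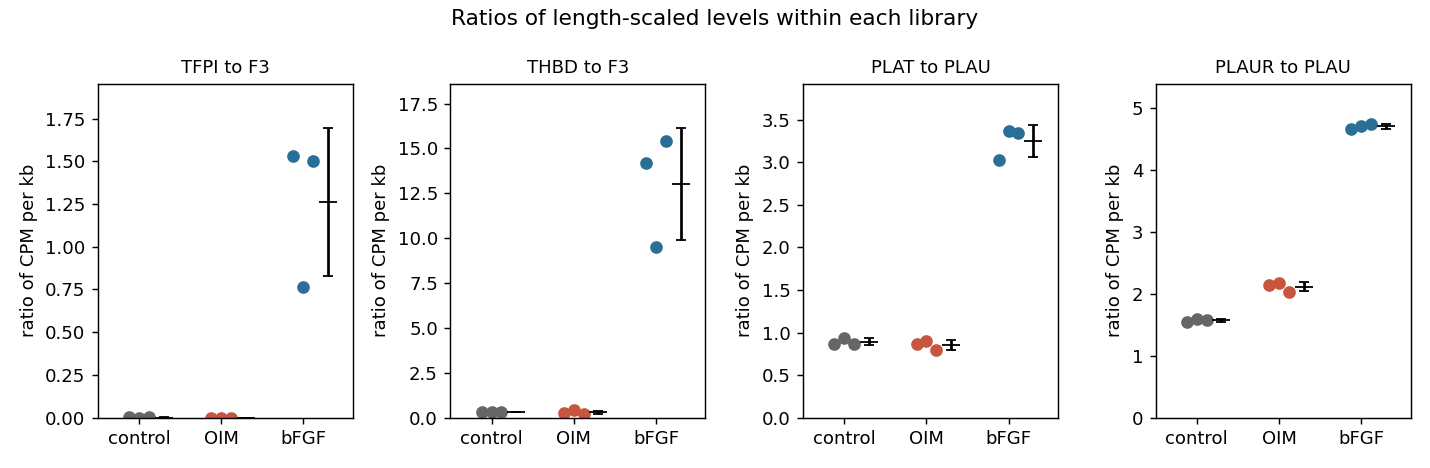
Ratios of CPM per kb of merged exons within each library (vertical axes from 0), with points for libraries and the bar showing the mean ± SD (n = 3). The PLAT to PLAU ratio is under 1 in every control and OIM library and 3.03 to 3.37 in the bFGF libraries, and the TFPI to F3 ratio is at most 0.00127 in the control and OIM libraries and 0.766 to 1.53 in the bFGF libraries.

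SERPINE2 encodes protease nexin 1, an inhibitor of thrombin, urokinase and tissue-type activator, and was the highest of the 9 genes per kb of merged exons in every group. It was 1530, 1580 and 1550 CPM in control, 1070, 1310 and 1040 CPM in OIM and 1360, 1380 and 1290 CPM in bFGF. OIM was below control in every library, and OIM replicate 2 lay within the range of the bFGF libraries. The means were 1550 ± 27.4, 1140 ± 151 and 1350 ± 45.0 CPM (SD, n = 3), and per kb of merged exons SERPINE2 ranked 38, 66 and 48 among the 13643 tested genes with a length in control, OIM and bFGF. The log2 fold change of OIM over control was -0.45 (SE 0.059), and -0.56 (SE 0.033) without OIM replicate 2, which takes it past the limit of 0.5. With bFGF over OIM it was 0.24 (SE 0.059), or 0.37 (SE 0.033) without that library. Against control it was -0.21 (SE 0.059), and its sign turned to 0.02 when libraries were scaled by their totals.

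The table also lists circular RNAs, and among the 9 genes SERPINE2 alone had any. Both end at 125777791 on chromosome 15. The one starting at 125767447 had 2, 3 and 3 counts in control, 3, 0 and 0 in OIM and 4, 5 and 0 in bFGF. The one starting at 125773918 had 0, 5 and 7 counts in control, 6, 10 and 4 in OIM and 3, 7 and 5 in bFGF. At these counts the groups overlapped and no difference was detectable. SERPINE2 itself lies on the minus strand at chr15:125748383-125777788, with 10 merged exons.

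A2M, a broad-spectrum inhibitor that traps proteases such as plasmin and thrombin, was low and lower still with bFGF. It was 8.33, 7.97 and 8.30 CPM in control and 9.26, 7.44 and 8.05 CPM in OIM. In bFGF it was 2.31, 1.90 and 1.27 CPM, from 124, 99 and 66 counts. Control and OIM overlapped, and the bFGF libraries lay below both. The means were 8.20 ± 0.201, 8.25 ± 0.925 and 1.83 ± 0.525 CPM (SD, n = 3). The transcript was 4.50-fold lower with bFGF than with OIM (log2 fold change -2.17, SE 0.16) and 4.47-fold lower than in control (-2.16, SE 0.16). Between OIM and control the log2 fold change was 0.01 (SE 0.14), and with 1 library missing it lay between -0.08 and 0.08, on either side of 0. A2M is on the plus strand at chr5:62406928-62483690, with 37 merged exons, and no annotated gene overlaps it.

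**Figure D4:**
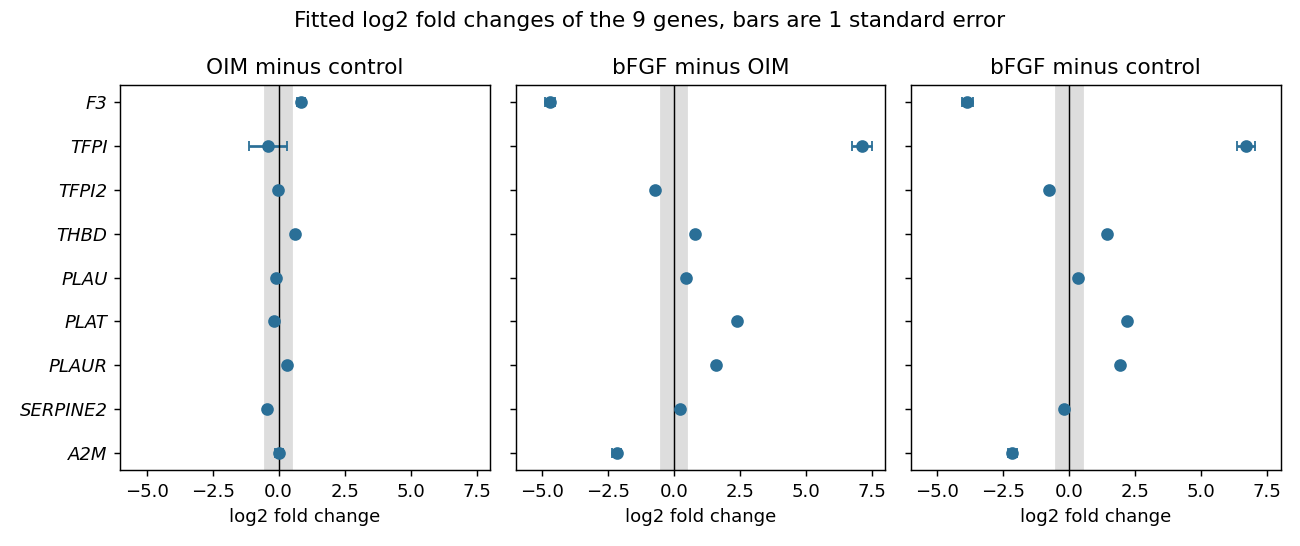
Fitted log2 fold changes of the 9 genes (horizontal axes) in the 3 comparisons, with bars of 1 standard error and grey bands for changes under 0.5. With bFGF against OIM, the values run from -4.71 for F3 to 7.12 for TFPI, and PLAU and SERPINE2 lie inside the band.

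Ordered by CPM per kb of merged exons, SERPINE2 led in every group with 802, 588 and 694 in control, OIM and bFGF. In control the next were TFPI2 (119), PLAUR (49.6), PLAU (31.6), PLAT (28.2) and F3 (16.2), and then THBD (5.21), A2M (1.63) and TFPI (0.0126), and no neighbours in that order overlapped. In OIM the order was the same except that F3 (29.2) came between PLAU (29.3) and PLAT (25.0), and the range of F3 overlapped those of PLAU and PLAT, which did not overlap each other. With bFGF the order changed, with PLAUR (188) and PLAT (130) above TFPI2 (69.9), then PLAU (39.9) and THBD (13.8). TFPI (1.31) and F3 (1.11) overlapped near the bottom, above A2M (0.362). The merged exons of TFPI come from 6 transcript models and total 7407 bases, so its level per kb is low for a given CPM. The median absolute log2 fold change of the 9 genes was 0.32, 1.60 and 1.92 for OIM over control, bFGF over OIM and bFGF over control, beside 0.11, 0.39 and 0.43 for all genes tested. The 9 genes were chosen with their levels known, so the medians of all genes are background only.

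The genes whose pattern over the 9 libraries was most like each of the 9 were found by the root-mean-square difference of log2 CPM, each gene centred on its own mean. TFPI2 and PLAU had the closest neighbours, TMEM59 (0.0252) and HIF1A (0.0347) for TFPI2 and BAZ1A (0.0301) and DHX38 (0.0337) for PLAU. PLAUR was nearest to POC1A (0.045) and CHAF1A (0.0533), THBD to EBP (0.074) and ROR2 (0.0801), and SERPINE2 to ZFP36L2 (0.0733) and MANBA (0.0824). PLAT, A2M, F3 and TFPI were further from their nearest genes. PLAT was nearest to ADGRG1 (0.115) and COL7A1 (0.118), A2M to LIN7A (0.16) and PTH1R (0.162), and F3 to SPARCL1 (0.254) and EPHB6 (0.317). TFPI stood furthest from its neighbours, CBLN4 (0.673) and AREG (0.732), and AREG encodes an epidermal growth factor receptor ligand. TFPI had only 0 to 9 counts in each control and OIM library, and the part of these low counts in its distance was not tested.

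The rest of the pathway was read from 54 other genes of coagulation and plasminogen activation, listed by role, of which 51 were in the table and 33 were tested. With bFGF against OIM, 11 of the 33 rose and 9 fell, with 13 not called, beside 17.7% and 18.4% of all genes, and the median log2 fold change was -0.28 beside 0 for all genes. The median absolute change was 0.90 beside 0.39 for all genes. With bFGF against control, 10 rose and 11 fell, beside 18.9% and 20.0% of all genes. With OIM against control 3 rose and 0 fell by edgeR, beside 1.49% and 0.864% of all genes, at a median of -0.05 beside 0. DESeq2 gave 4 and 0 calls, and at an unadjusted p under 0.05 11 of the 33 were lower, 2 of them past the fold limit. A count of 0 in every library was found for PLG, which encodes plasminogen, and for F9, F11, FGG, KLKB1, KNG1, SERPINA5 and HRG, most of which are made by the liver.

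Among the 10 genes tested on the coagulation factor list, 3 rose and 1 fell with bFGF against OIM. That list also holds LMAN1 and MCFD2, which are not factors themselves and were not called. F5, the cofactor of factor Xa, rose from 22.6 ± 1.61 to 85.0 ± 2.1 CPM (log2 fold change 1.91, SE 0.056, adjusted p = 1.68e-16 by edgeR). F10, the protease that TFPI inhibits, rose from 2.06 ± 0.805 to 8.88 ± 0.698 CPM (2.1, SE 0.21, adjusted p = 3.29e-08). F7, the partner of tissue factor, rose by 2.01 (SE 0.50, adjusted p = 0.00154) from 0.204 ± 0.0219 to 0.829 ± 0.244 CPM, a low level. F13A1, which cross-links fibrin, fell by 1.16 on the log2 scale (SE 0.40, adjusted p = 0.0143) to 0.516 ± 0.287 CPM, and this call was lost without bFGF replicate 1 or 2. F10 was also higher in OIM than in control (0.94, SE 0.24, adjusted p = 0.0127), a call lost without OIM replicate 2 (0.57, adjusted p = 0.0823), without control replicate 1 or 3 and in a fit on those 2 groups alone.

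F2R, the main thrombin receptor, rose with bFGF against OIM by 1.58 (SE 0.14, adjusted p = 5.49e-09), from 3.86 ± 0.393 to 11.6 ± 1.14 CPM. It was 0.60 higher in OIM than in control (SE 0.15, adjusted p = 0.0127), a call lost without control replicate 1 or 2. The next list joins the protein C system, which thrombomodulin serves, with vitamin K carboxylation. Of its 6 genes tested, 1 rose and 3 fell with bFGF against OIM. PROCR, the endothelial protein C receptor, rose from 17.5 ± 2.39 to 60.7 ± 1.05 CPM (1.79, SE 0.078, adjusted p = 6.6e-14), in the same libraries in which the endothelial markers were higher, and their part in it was not tested. PROS1, the protein S cofactor, fell from 84.2 ± 4.57 to 40.1 ± 0.845 CPM (-1.07, SE 0.047, adjusted p = 7.38e-14). GAS6, a vitamin K-dependent ligand, fell by 1.55 (SE 0.086) and GGCX, the carboxylase of these proteins, fell by 0.74 (SE 0.037) on the log2 scale.

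Of the 5 serpins tested, 2 rose and 2 fell with bFGF against OIM. SERPINB2, an inhibitor of urokinase, rose from 3.76 ± 1.22 to 55.6 ± 3.40 CPM (3.87, SE 0.16, adjusted p = 2.79e-14). SERPINI1, neuroserpin, an inhibitor of tissue-type activator, rose by 1.26 (SE 0.27, adjusted p = 0.000349), and SERPING1, the C1 inhibitor, fell by 1.16 (SE 0.058).

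Of the 4 plasminogen-binding genes tested, 1 rose and 1 fell with bFGF against OIM. PLGRKT, a plasminogen receptor, rose by 0.58 (SE 0.16, adjusted p = 0.00351), a call lost without OIM replicate 2 (0.46) or bFGF replicate 3 (0.49). ENO1, a glycolytic enzyme that also binds plasminogen, fell by 0.93 (SE 0.033, adjusted p = 3.69e-15). ANXA2 and S100A10, whose products form a complex that binds plasminogen and PLAT, stayed under the fold limit at -0.16 (SE 0.031) and 0.32 (SE 0.049), whereas with scaling by library totals ANXA2 turned to 0.06 and S100A10 reached 0.54 (adjusted p = 2.07e-08) and was called.

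All 6 genes of the clearance receptor list were tested, and 3 rose and 2 fell with bFGF against OIM. The list also holds LRPAP1, which is not a receptor itself and was not called. LRP1, which takes up protease and inhibitor complexes and A2M, fell from 5040 ± 167 to 2690 ± 78.9 CPM (-0.90, SE 0.04, adjusted p = 9.11e-14). VLDLR fell by 1.97 (SE 0.053, adjusted p = 5.32e-17). LRP8 and LRP2 rose by 1.47 (SE 0.061) and 1.43 (SE 0.35), with adjusted p of 2.76e-14 and 0.00128.

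**Figure D5:**
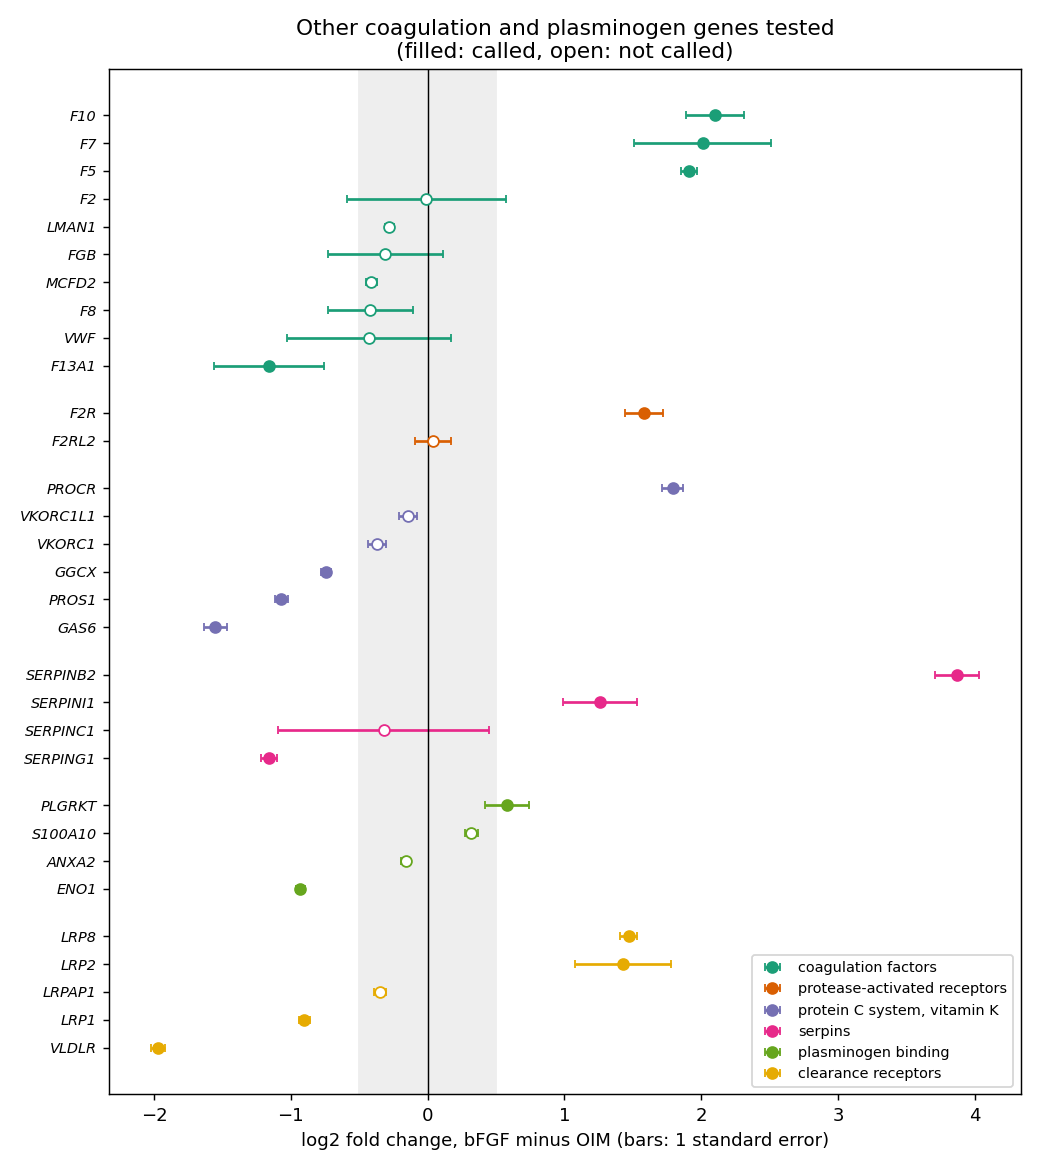
Log2 fold change of bFGF over OIM (horizontal axis, bars 1 standard error) for 31 of the other pathway genes tested, coloured by role, with filled points for called genes, open points for the rest and a grey band for changes under 0.5. SERPINB2 lies furthest to the right at 3.87 and VLDLR furthest to the left at -1.97, and called genes lie on both sides in 5 of the 6 roles, all but the protease-activated receptors.

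Markers of other cells were read for the same libraries. The 8 markers of interstitial fibroblasts were all expressed, summing to 46200 to 50900 CPM in control, 44300 to 46200 in OIM and 28600 to 29000 in bFGF, with COL1A1, COL3A1 and DCN lower and VIM higher with bFGF against OIM. The 5 smooth muscle markers summed to 7180 to 7520, 7480 to 10200 and 824 to 929 CPM, and all 5 fell with bFGF against OIM, among them ACTA2 (log2 fold change -3.52) and MYH11 (-5.64). Leukocyte markers summed to 8.25 to 16.2 CPM over all libraries, with CD3E and MS4A1 at 0, and platelet markers to 3.09 to 6.38 CPM. The 4 epithelial markers reached at most 0.22 CPM in sum. F3, TFPI2 and A2M were lower in the libraries in which the smooth muscle and collagen genes were lower, and the part of the cells' makeup in the 9 genes' levels was not tested.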

How the data were processed

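RNA was measured in 9 libraries of PVICs, 3 each of control, OIM and bFGF, grouped by the sample labels. The authors deposited 1 table without normalization, with whole-number counts of 19535 genes and 6179 circRNAs and expected counts (estimated counts, not whole) of 9888 non-coding transcripts. The paper states trimming with Cutadapt and alignment with STAR, whereas the submitters' processing notes list Trimmomatic, HISAT2 and StringTie; labels and paper also differ on the library kit, the sequencer and the treatment time. The counting program and its strand setting are not given in the sources used here. Both sources give Sscrofa11.1, and 5248 circRNAs had both ends on annotated exon ends, against 0 after a shift of 7 bases. In the table, 19 unnamed columns are empty and were left out, and 25 gene symbols had turned into dates.

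The 19535 genes were analysed with R 4.3.3 and edgeR 4.0.16, using filterByExpr, TMM and a quasi-likelihood fit of 3 groups with 6 residual degrees of freedom. A gene was called at a Benjamini-Hochberg adjusted p (over the 13662 genes kept) up to 0.05 together with a log2 fold change of 0.5 or more in either direction, as in the study's methods. Standard errors were derived from the fold change and the F statistic, and lengths are merged RefSeq exons. The procedure was tested on simulated data. The 9 genes and all lists were chosen with earlier results of these data known. Named besides the 9 are the listed pathway genes called in bFGF against OIM or OIM against control, then F2R, PROCR, ANXA2, S100A10 and LRP1 whatever their result, and for each of the 9 the 2 genes nearest in log2 CPM (prior count 2). Markers and overlapping genes are given where they bear on a value. Some results that this rule covers, for 2 pathway genes, and 2 upstream sequences are not reported here. Calls were repeated with library totals or median-of-ratios factors in place of TMM, with DESeq2 1.42.0, with other count filters and fold limits, on the 2 groups of a comparison alone, with a replicate block and without each library.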

Additional observations from a re-analysis of the deposited data

How the results depend on the processing

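With library totals in place of TMM, 3733 genes were called higher for bFGF against OIM (2420 with TMM) and 3931 for bFGF against control (2584 with TMM). Under the same scaling, ANXA2 turned to 0.06 for bFGF against OIM and S100A10 to 0.12 for bFGF against control, and S100A10 became a call for bFGF against OIM (0.54, adjusted p = 2.07e-08), which made 12 of the pathway list higher. With no fold limit, 1051 genes were called higher and 802 lower for OIM against control, 4620 and 4583 for bFGF against OIM, and 4709 and 4881 for bFGF against control. With a fold limit of 1, these counts were 63 and 28, 1216 and 1245, and 1339 and 1417. Of the pathway list, no fold limit gave 8 lower for OIM against control and 14 lower for bFGF against OIM. A fold limit of 1 gave 0 higher and 0 lower for OIM against control, and 9 higher and 5 lower for bFGF against OIM. Each count depends on the limit by its construction; the cause of the difference between scalings was not tested.

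With libraries left out in turn, 177 to 210 genes were called higher and 101 to 146 lower for OIM against control, and 1 to 3 and 0 to 1 of the pathway list, with 1 higher and 1 lower without control replicate 1. For bFGF against OIM, 2327 to 2584 were called higher and 2421 to 2529 lower. The OIM over control log2 fold changes of F13A1 (-0.16 to 0.30), LRP8 (-0.05 to 0.09), PLGRKT (-0.25 to 0.11) and SERPINB2 (-0.29 to 0.17), which were not called, changed sign. Without OIM replicate 2, SERPINE2 became the 1 gene of the 9 called lower for OIM against control. Folds of TFPI against control or OIM rest on at most 9 counts a library.

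The replicate numbers did not pair the libraries. Deviations of same-numbered libraries from their group means correlated at -0.032 to 0.0035, and the best match was the library of the same number in 0 of 18 cases. With the replicate number as a block, 195 genes were called higher and 114 lower for OIM against control, 2413 and 2504 for bFGF against OIM, and 2572 and 2713 for bFGF against control, and the pathway counts were 3 and 0, 11 and 9, and 10 and 11.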
